A study of Mus musculus with 7 samples.

Results

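The 384 broadest accessible regions in spleen Treg cells (regulatory T cells, CD4+ cells that restrain immune responses) of mice are described here, out of 50213 regions (peaks) measured by ATAC-seq. In this assay a transposase cuts and tags DNA that is not wrapped in packed chromatin, so the number of tagged fragments at a place reports how open it is. A peak was taken as broad when it lay on a chromosome and its deposited end minus its start was 1000 bp or more, and 2 more peaks of that width on unplaced scaffolds were left out. The cells came from chimeric mice whose marrow was rebuilt from a 1:1 mix, 1 portion CD45.1+ and the other carrying Foxp3Cre alone (called WT, 4 mice) or Foxp3Cre with both copies of Opa1 floxed (Foxp3CreOpa1fl/fl, called Opa1 KO, 3 mice). Foxp3Cre makes Cre recombinase only where Foxp3 is active, so both groups carry Cre in Treg cells, the CD45.1+ partner cells keep Opa1, and deletion in the KO is meant to be limited to the Treg lineage of the donor marrow. About 50000 Treg cells per mouse were sorted as CD4+ Foxp3-YFP+, with CD45.2 present and CD45.1 absent, and each mouse gave 1 library. The labels used here give no age for the mice.

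Broad peaks tend to be of a few kinds. Promoters rich in CpG dinucleotides are held free of nucleosomes over a long stretch by the transcription machinery and by proteins that bind unmethylated CpG, and promoters that fire in both directions are open on either side of their starts. Clusters of enhancers that bind many factors at once can also be called as 1 wide region, and in Treg cells such clusters are known at lineage genes. Opa1 is an inner-membrane GTPase that fuses mitochondria and shapes their cristae, and Foxp3 is the transcription factor that defines Treg cells.

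The libraries held between 1534394 and 3384325 counts in all peaks, and KO replicate 1 was the deepest. The median broad peak had between 102 counts (WT replicate 2) and 227 counts (KO replicate 1), against 14 to 30 for the median of all peaks, so broad peaks are among the best measured places in the data. The counts of WT replicates 2 and 3 agreed within sampling noise over 36418 peaks (chi-square over its degrees of freedom 1.009, p = 0.111). Over the broad peaks alone the chi-square p of WT replicates 2 and 3 was 0.520, and WT replicate 4 did not differ detectably from replicate 2 (p = 0.222) or replicate 3 (p = 0.423) either. Over the 36418 peaks each other pair of WT libraries differed, with chi-square p of 0.00137 or less. Means ± SD take the mean of WT replicates 2 and 3 as a single sample and have n = 3 in both groups, and the tests keep them apart. Where these 2 libraries differ, such an SD is smaller than the spread of the 4 libraries. Levels are given in CPM, counts scaled to a common total over the tested peaks with TMM factors. The Opa1 peak at its own start is 385 bp wide and thus no broad peak; it measured 36.8 ± 1.17 CPM in WT and 35.0 ± 6.93 CPM in KO (SD, n = 3; log2 fold change -0.06, SE 0.19, adjusted p = 0.955), and since the sources used do not say which part of the gene is floxed, it does not check the deletion.

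The broad peaks lay mostly at the starts of protein-coding genes. A listed protein-coding transcript start fell inside 220 of the 384 (57.3%), against 14.98% of the 49785 narrower peaks on chromosomes. Of the rest, 72 lay inside a gene with no such start and 46 lay between genes within 100 kb of one. Another 42 covered an end of a gene, and 4 had no protein-coding gene within 100 kb. Of the 42, 6 were at a 5′ end, 2 at a 3′ end and 34 at genes without a listed strand. At those 34 the end can be the 5′ or the 3′ end, so some may be starts that are not listed. Starts on both strands, the layout of a bidirectional promoter, were in 32 broad peaks, 14.5% of those with a start, against 7.86% of the narrower peaks with a start. These shared promoters included Hnrnpa2b1/Cbx3 and Cbx5/Hnrnpa1 (RNA-binding proteins paired with heterochromatin proteins), Paics/Ppat (purine synthesis), Exosc8/Alg5 (an RNA exosome subunit and a glucosyltransferase of protein glycosylation), Psme2/Rnf31 (a proteasome activator subunit and the catalytic subunit of the linear ubiquitin ligase) and Atp5j/Gabpa (an ATP synthase subunit and an ETS factor). Position and layout were not used to choose the peaks, but width was, and a wider peak has more room for a start or for 2. Of narrower peaks with a start, those with starts on both strands were 2.06% under 300 bp. From 700 to under 900 bp they were 12.1%, and from 900 to under 1000 bp 9.45%. The comparisons with narrower peaks are thus not free of width.

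The starts in broad peaks were the richest in CpG. RefSeq's promoter table (GRCm38.p6, 250 bases before to 50 after a start) placed 303 protein-coding starts of 254 genes in broad peaks. Their median GC content was 66.7%, with 28 CpG in the 300 bases and a CpG ratio (observed over that expected from the base content) of 0.874. Starts in narrower peaks had medians of 62% GC, 22 CpG and 0.803, and starts in no peak had 51%, 5 and 0.282. Windows with a GC content above 50% and a CpG ratio above 0.6, a common mark of a CpG island, made up 86.5% of the starts in broad peaks, 77.6% in narrower peaks and 20.9% in no peak.

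Short motifs of 10 common factors were searched in the same windows on both strands. GGGCGG, the GC box bound by SP and KLF factors, was in 76.6% of the starts in broad peaks, 70.0% in narrower peaks, 28.4% in no peak and 46.2% of all starts. CCGGAA, the core bound by ETS factors, was in 28.1%, 33.8%, 7.63% and 18.7% in that order, and CCAAT, the box bound by NF-Y, in 32.3%, 40.8%, 36.5% and 38.2%. GCATGCGC (NRF1) was in 5.61%, 6.55%, 1.30% and 3.52%, TGACGTCA (the cAMP response element) in 3.30%, 3.94%, 0.990% and 2.23%, and TCACGTGA (the box of the TFEB family) in 3.30%, 2.254%, 0.450% and 1.23%. Like CCAAT, the remaining 4 were no more frequent in broad peaks than over all starts. TATAAA (the TATA box) was in 3.96% against 12.6%, and TGTGGT (RUNX) in 6.93% against 14.97%. TGANTCA (AP-1) was in 2.31% against 6.99%, and TGTTTAC (forkhead) in 2.97% against 3.01%. GC-rich motifs are found more often by base content alone, and a match is not a bound site.

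The promoters below show what such a region looks like at the base level. Each run is the RefSeq sequence just before a transcript start that lies in a broad peak, 5′ to 3′ on the gene's own strand, with capitals for letters that match a searched motif on either strand (a GC box reads CCGCCC from the other strand). Lnpep (the insulin-regulated aminopeptidase of endosomes) and Cic (the repressor Capicua) are shown as promoters among the highest WT levels. Lnpep is at chr17:17624490-17624739, minus strand, and holds 4 GC boxes and 1 ETS core; Cic is at chr7:25267449-25267698, plus strand, and holds 3 CCAAT boxes and 1 GC box.
Lnpep: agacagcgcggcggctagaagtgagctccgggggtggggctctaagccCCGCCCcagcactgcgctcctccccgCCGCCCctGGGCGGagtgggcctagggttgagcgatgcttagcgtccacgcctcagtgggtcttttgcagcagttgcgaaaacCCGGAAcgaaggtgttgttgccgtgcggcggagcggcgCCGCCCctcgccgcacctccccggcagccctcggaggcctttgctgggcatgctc
Cic: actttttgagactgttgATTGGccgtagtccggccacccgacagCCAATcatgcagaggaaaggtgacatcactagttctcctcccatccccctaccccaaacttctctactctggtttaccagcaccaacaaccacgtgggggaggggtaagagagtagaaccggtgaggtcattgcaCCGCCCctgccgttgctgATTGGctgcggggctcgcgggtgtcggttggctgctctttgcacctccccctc

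The next promoters belong to the broad peaks with the smallest p in the comparison of KO and WT described further on, Cers5 and Ptprs with lower and Zdhhc23, Egln2 and Exosc8 with higher KO values. Cers5 (a ceramide synthase) is at chr15:99772516-99772765, Ptprs (a receptor tyrosine phosphatase) at chr17:56462222-56462471, Zdhhc23 (a palmitoyltransferase) at chr16:43979810-43980059, Egln2 (a prolyl hydroxylase that acts on hypoxia-inducible factors) at chr7:27166803-27167052 and Exosc8 at chr3:54735365-54735538, all on the minus strand. The Exosc8 run is 174 bases because it stops where the Alg5 gene begins. GC boxes number 2 in Cers5, 3 in Ptprs, 2 in Zdhhc23 and 1 in Exosc8, and the Egln2 run holds none of the 10 motifs. Their CpG content differs widely, from 15 CpG in the Ptprs run to 41 in the Zdhhc23 run, whose GC content is 80.8%.
Cers5: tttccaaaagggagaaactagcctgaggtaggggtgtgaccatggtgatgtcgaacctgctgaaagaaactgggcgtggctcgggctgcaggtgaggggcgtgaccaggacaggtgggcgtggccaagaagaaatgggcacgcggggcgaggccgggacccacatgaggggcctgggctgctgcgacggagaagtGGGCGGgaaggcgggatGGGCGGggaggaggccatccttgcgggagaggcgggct
Ptprs: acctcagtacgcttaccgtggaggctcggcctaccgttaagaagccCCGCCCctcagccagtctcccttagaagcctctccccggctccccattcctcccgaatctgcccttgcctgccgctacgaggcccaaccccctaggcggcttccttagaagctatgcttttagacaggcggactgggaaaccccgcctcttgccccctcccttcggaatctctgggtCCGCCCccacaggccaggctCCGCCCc
Zdhhc23: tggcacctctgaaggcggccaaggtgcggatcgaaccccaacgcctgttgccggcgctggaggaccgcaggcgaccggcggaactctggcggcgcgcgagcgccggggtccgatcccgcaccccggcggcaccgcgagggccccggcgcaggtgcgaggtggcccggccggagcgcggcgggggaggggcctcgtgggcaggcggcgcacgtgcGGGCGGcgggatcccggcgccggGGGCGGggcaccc
Egln2: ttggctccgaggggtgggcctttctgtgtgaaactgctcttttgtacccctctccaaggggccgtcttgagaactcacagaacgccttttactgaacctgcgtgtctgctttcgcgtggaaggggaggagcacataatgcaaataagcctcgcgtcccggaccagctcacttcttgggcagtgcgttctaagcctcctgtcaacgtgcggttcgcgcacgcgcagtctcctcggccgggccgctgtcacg
Exosc8: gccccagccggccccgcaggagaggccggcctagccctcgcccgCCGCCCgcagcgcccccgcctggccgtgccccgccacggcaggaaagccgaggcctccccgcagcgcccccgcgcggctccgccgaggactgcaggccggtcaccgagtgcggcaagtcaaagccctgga

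Hnrnpa2b1 (a splicing factor, from a bidirectional promoter) and Nfkbia (the NF-κB inhibitor IκBα) are shown from the gene lists, and Cdk9 (the kinase that releases paused RNA polymerase II) because a microRNA lies in its promoter. Hnrnpa2b1 is at chr6:51469895-51470144 and holds 1 CCAAT box and 1 ETS core, Nfkbia is at chr12:55492648-55492897 with 1 GC box, and Cdk9 is at chr2:32712785-32713034 with 1 of each of these 3 motifs; all are on the minus strand. Hnrnpa2b1 has 29 CpG in 250 bases and Nfkbia 8, so broad peaks also cover starts with few CpG.
Hnrnpa2b1: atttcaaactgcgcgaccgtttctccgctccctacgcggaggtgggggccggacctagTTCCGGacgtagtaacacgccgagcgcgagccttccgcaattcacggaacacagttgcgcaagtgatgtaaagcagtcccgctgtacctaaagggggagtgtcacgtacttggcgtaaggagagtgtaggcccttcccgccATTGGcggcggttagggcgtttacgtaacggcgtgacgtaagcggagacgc
Nfkbia: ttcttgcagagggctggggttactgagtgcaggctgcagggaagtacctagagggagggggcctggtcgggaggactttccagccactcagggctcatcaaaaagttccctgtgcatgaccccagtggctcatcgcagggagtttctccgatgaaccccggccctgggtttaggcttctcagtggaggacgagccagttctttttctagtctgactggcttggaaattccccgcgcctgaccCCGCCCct
Cdk9: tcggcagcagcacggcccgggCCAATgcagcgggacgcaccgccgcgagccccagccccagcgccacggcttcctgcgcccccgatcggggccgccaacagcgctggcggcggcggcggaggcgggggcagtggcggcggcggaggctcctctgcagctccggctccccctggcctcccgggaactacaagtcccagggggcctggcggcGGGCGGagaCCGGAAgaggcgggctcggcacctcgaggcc

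A few microRNA hairpins lay in the broad peaks. Of 1005 hairpins listed by RefSeq, 46 lay in any peak, and 4 of the 46 (8.70%) in a broad peak, where broad peaks make up 0.765% of all peaks and 2.41% of the bases in peaks. Of these 4, 3 had a listed mature sequence. The seeds, bases 2 to 8 in capitals, are all different. The sequence of miR-2861 stands, as DNA, from base 198 of the Cdk9 run above. Open DNA over such a hairpin does not show that the microRNA is made.
mmu-miR-2861, in the Cdk9 peak: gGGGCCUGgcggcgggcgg
mmu-miR-5131, in the Ddhd1 peak: cGGCGCCCcacggagccccgagc
mmu-miR-5130, in the Kctd12 peak: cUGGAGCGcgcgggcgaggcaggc

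Below the limit, wider peaks held a transcript start more often, and the level per kb was close on either side of the limit. The share with a protein-coding start was 3.16% of peaks under 300 bp, 17.6% from 300 to under 500 bp, 38.5% from 500 to under 700 bp, 48.0% from 700 to under 900 bp and 55.2% from 900 to under 1000 bp. Above the limit it was 54.9% of the 184 peaks from 1000 to under 1100 bp, 62.7% of the 161 peaks from 1100 to under 1300 bp and 46.2% of the 39 wider ones. The median WT level went from 4.54 CPM in the narrowest class to 61.3 CPM from 900 to under 1000 bp, 67.3 CPM from 1000 to under 1100 bp, 66.6 CPM from 1100 to under 1300 bp and 81.4 CPM in the widest class. Per kb of peak the median was 19.1 CPM in the narrowest class, 63.8 CPM from 900 to under 1000 bp, 64.2 CPM from 1000 to under 1100 bp and 55.8 CPM in the widest class. Peaks from 900 to under 1000 bp thus had shares and levels close to those just above the limit. The narrowest broad peak, Stam at 1000 bp (a sorting protein of endosomes), measured 46.5 ± 4.52 CPM in WT and 37.5 ± 4.56 CPM in KO. The widest peaks left out, of 999 bp, were near or at Usp53 (113 ± 11.7 CPM in WT), Gem (63.9 ± 8.31 CPM) and Tmod3 (50.8 ± 5.41 CPM) (SD, n = 3).

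**Figure D1:**
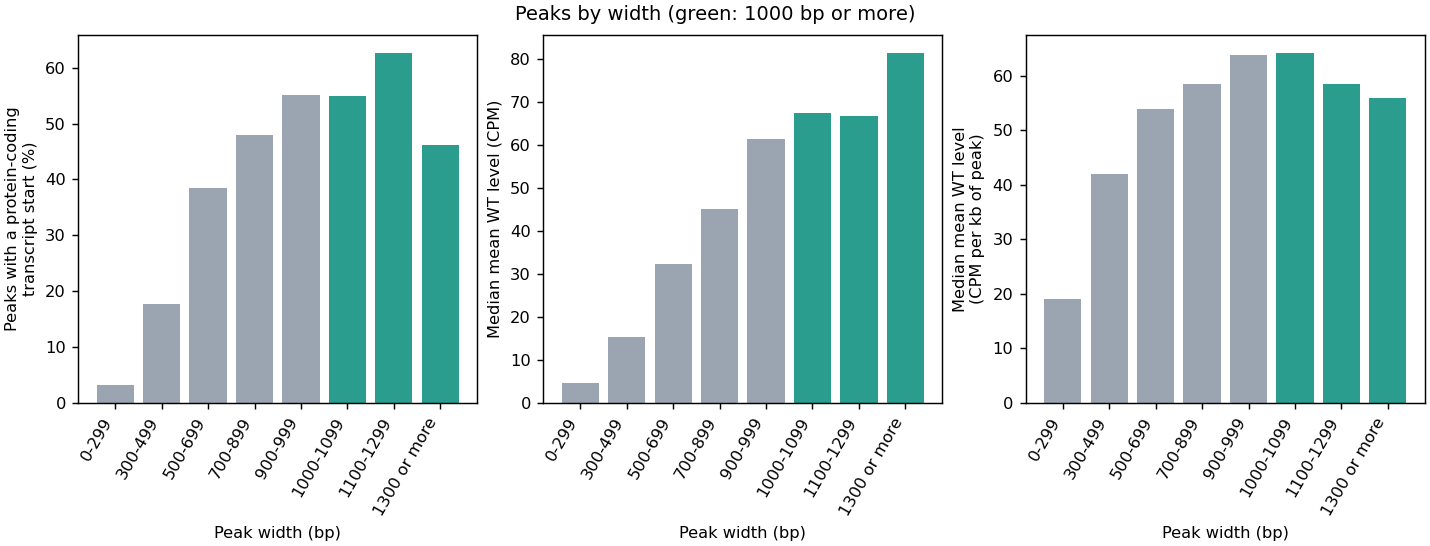
Peaks in classes of width (bp): the share with a protein-coding transcript start (%), the median over peaks of the mean WT level (CPM), and the same median per kb of peak (CPM per kb). Gray bars are classes under 1000 bp and green bars are broad peaks. The start share goes from 3.16% to 55.2% before the limit, and the level per kb is 63.8 CPM just below it and 64.2 CPM just above it.

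The broad peaks were spread over the genome. They lay on chromosomes 1 to 19 and X, with 30 on chromosome 7 and 5 on the X chromosome, which is 0.382% to 1.00% of each chromosome's peaks. The median distance to the nearest other peak was 8153.5 bp for broad peaks and 5569 bp for narrower ones. Bach2, Mnt, Camk2d and Ppp1r12a each had 2 broad peaks, and no gene had more. The closest pair was at Mnt, a repressor that competes with Myc for Max, where 6680 bp separated a peak at the start (64.4 ± 10.9 CPM in WT) from one inside the gene (68.7 ± 9.45 CPM).

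In WT cells the levels of the broad peaks ran from 11.1 ± 2.64 CPM inside G3bp2 (a stress granule protein) to 691 ± 17.6 CPM at Zbtb20. Of the 100 peaks with the highest WT level in the whole series, 21 were broad, and of the top 1000, 79 (7.90%). The broad peak at the 5′ end of Zbtb20, a BTB zinc finger repressor (chr16:42875059-42876192), measured 672, 756, 657 and 694 CPM in WT replicates 1 to 4 and 666, 707 and 796 CPM in KO replicates 1 to 3. It was the highest broad peak in all 7 libraries and had the highest mean WT level per kb (613 CPM per kb), and the WT and KO values overlapped. The only starts listed in this peak are those of the noncoding gene 4932412D23Rik.

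The Lnpep promoter (chr17:17624356-17625583) was second, with 528, 533, 495 and 484 CPM in the WT and 493, 580 and 537 CPM in the KO libraries. A peak inside Kat6b, a histone acetyltransferase, was the third (405, 502, 421 and 388 CPM in WT). Per kb, Kat6b (417 CPM per kb) and Lnpep (416 CPM per kb) stood level. The promoters of Cetn3 (a centrin of the centrosome) with 387 ± 17.6 CPM, Rap2a (a small GTPase) with 380 ± 1.38 CPM (single WT libraries 360 to 402 CPM), Slc39a10 (a zinc importer) with 354 ± 18.6 CPM and Mon1b (an activator of Rab7 on late endosomes) with 347 ± 20.9 CPM came next among the starts.

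The widest peak of all, 2072 bp inside Crlf2 (a subunit of the receptor for the cytokine TSLP, chr5:109556745-109558817), measured 372, 353, 422 and 378 CPM in WT and 358, 393 and 395 CPM in KO. It ranked 5 by level and 31 per kb (184 CPM per kb). The next widest were at Rev3l (1723 bp, the catalytic subunit of a DNA polymerase for damaged templates, 134 ± 9.82 CPM in WT), Ss18 (1722 bp, a chromatin remodeling subunit, 81.0 ± 8.11 CPM), Alyref2 (1683 bp, an mRNA export adaptor, 100.97 ± 15.3 CPM) and the predicted gene Gm34296 (1573 bp, 55.3 ± 5.85 CPM), so the widest peaks were not the highest.

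The rest of the 20 highest ran from 372 ± 4.54 CPM to 254 ± 19.8 CPM. They included promoters of Zfp78, Zfp788, Arl4a (a small GTPase), Camta1 (a calmodulin-binding transcription factor) and Cic. Promoters of Ing3 (a subunit of a histone acetyltransferase complex), Rbm15 (an RNA-binding subunit of the m6A methyltransferase) and the bidirectional pairs Cep57/Fam76b and Nudt6/Spata5 were also among them. Another peak covered an end of Ripk2 (the kinase of the NOD receptors), a gene without a listed strand. The remaining 2 were a peak 44677 bp from Zfp958 and one at chr16:84583387-84584549, 133732 bp from the nearest protein-coding gene. Whether reads of repeated sequence add to the last 2 was not analysed here. Between neighbours in this order the WT ranges overlapped except between Zbtb20 and Lnpep, so most ranks are not separated by the spread of the libraries. Each library had 18 to 20 of these 20 peaks among its own 20 highest, and the order per kb shared 17 of them.

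**Figure D2:**
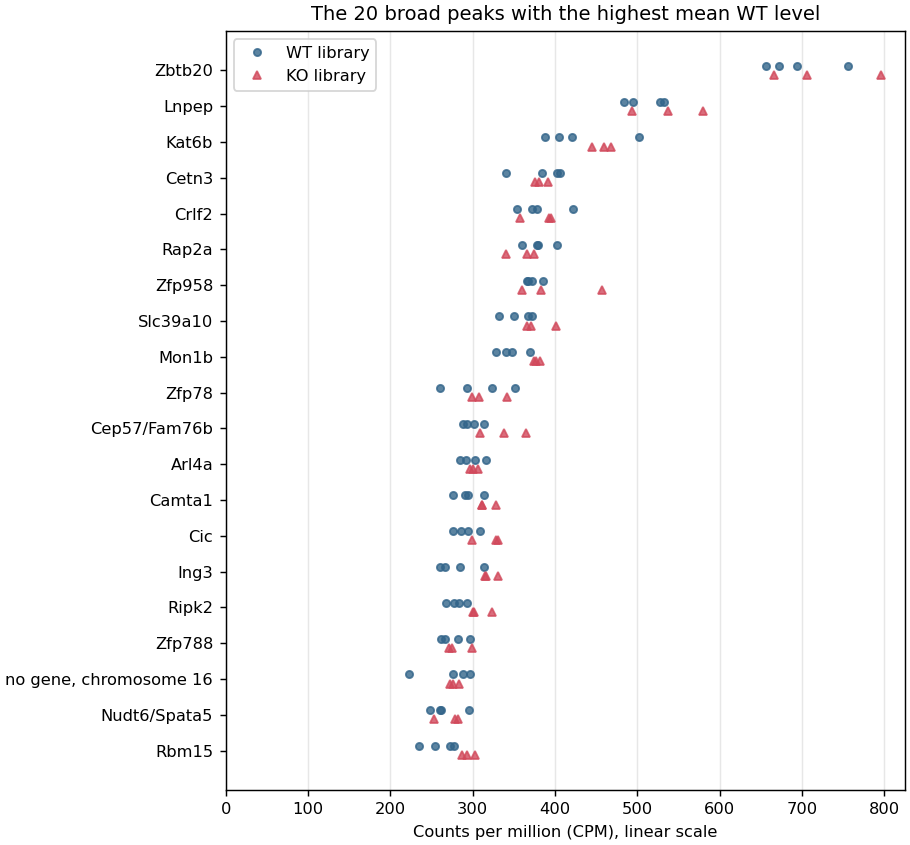
The 20 broad peaks with the highest mean WT level, from top to bottom, with 1 point per library on a linear axis in CPM (blue circles WT, red triangles KO); each peak carries the name of its gene or of the nearest gene. Zbtb20 lies apart with 657 to 756 CPM in WT, and below it the ranges of neighbouring peaks overlap.

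Deletion of Opa1 in Treg cells was compared with WT to ask whether the broadest open regions change. None of the 384 broad peaks, all of which were tested, was called at an adjusted p under 0.05 by edgeR's quasi-likelihood test, where 33 of 38041 peaks (0.0867%) were called in all. DESeq2 and limma-voom called none of the broad peaks either. At an unadjusted p under 0.05 there were 59 broad peaks (15.4%, against 9.47% of all tested peaks), 40 with higher and 19 with lower KO values. Among all tested peaks this share was larger at high levels, where most broad peaks lie, and it is given by level below. The smallest adjusted p was 0.142. In bulk libraries, fewer cells with an open region and less opening per cell cannot be told apart.

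The differences were small. The log2 fold change was above 0 at 238 and below 0 at 146 broad peaks, with a median of 0.049, where the median of all tested peaks was -0.001; with loess offsets that flatten the trend with level, 183 broad peaks lay above 0 and their median turned to -0.0083. It lay within 0.5 of 0 at 376 of 384. The median SE was 0.14, against 0.31 over all tested peaks. The 3 KO libraries all lay above the 4 WT libraries at 38 broad peaks (9.90%, against 4.85% of all tested peaks) and all below at 17 (4.43%, against 4.51%). These counts depend on the number of libraries compared: without KO replicate 1 they were 65 and 26, without KO replicate 2 the lower count was 29, and without WT replicate 3 it was 28. Fewer libraries lie apart more often by chance, and the shares of all tested peaks under these omissions were not computed. The counts after an omission are therefore not read as an excess.

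By place, the median log2 fold change was 0.051 at the 220 peaks with a transcript start, 0.054 inside genes, 0.042 between genes, 0.010 at gene ends and 0.076 at the bidirectional promoters. With loess offsets these medians were -0.005, -0.003, 0.006, -0.042 and 0.016, and with total counts as the scale that at gene ends was -0.017, so their signs depend on the scaling. The difference was above 0 at 24 of the 32 bidirectional promoters, and at 18 with loess offsets. Narrower peaks with a start had a median of 0.044, and narrower peaks inside genes and between genes -0.017 and -0.043. Peaks inside and between genes are thus stronger as well as wider when broad, with a median of 63.2 CPM and 51.2 CPM against 7.85 CPM in both kinds of place when narrower.

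**Figure D3:**
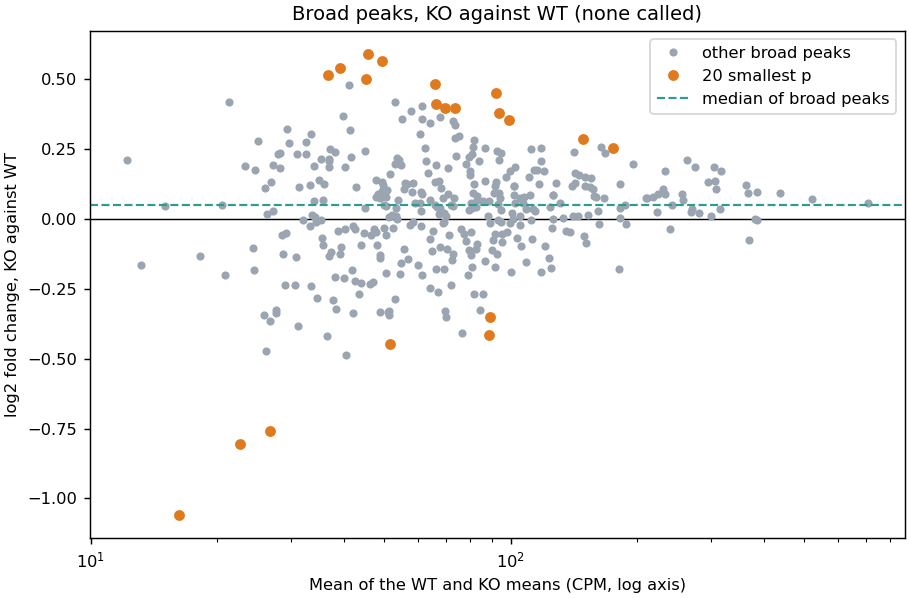
The log2 fold change of KO against WT for each of the 384 broad peaks (vertical axis) by the mean of its WT and KO levels (CPM, log axis). Orange points have the 20 smallest p, the dashed line is the median of broad peaks (0.049, and -0.0083 with loess offsets), and the spread narrows toward high levels; none was called.

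The level of a peak went with its difference. Among all tested peaks cut into 10 classes of equal size by level, the median log2 fold change ran from -0.195 in the lowest class to 0.068 in the highest. The highest class held 228 of the broad peaks (59.4%), whose median was 0.059 (-0.006 with loess offsets). In that class the KO libraries all lay above WT at 30 of the 228 (13.2%, against 10.4% of all peaks of the class) and all below at 6 (2.63%, against 1.87%). In the next class the 97 broad peaks had a median of 0.009, against 0.057 for all peaks of that class. The KO libraries all lay above WT at 8 of these 97 (8.25%, against 7.78% of all peaks of that class). They all lay below WT at 8 as well (8.25%, against 3.73%). An unadjusted p under 0.05 in edgeR's test was found at 7.52% of all peaks in the lowest class and 14.0% in the highest. In the highest class it was found at 16.2% of the broad peaks. In the class below it the shares were 18.6% of the broad peaks and 12.9% of all peaks.

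The share of each library's counts that fell in broad peaks was 3.438%, 3.426%, 3.403% and 3.386% in WT replicates 1 to 4 and 3.462%, 3.503% and 3.512% in KO replicates 1 to 3. The means were 3.41% ± 0.026 and 3.49% ± 0.026 (SD, n = 3), and the groups did not overlap. Narrower peaks with a transcript start took 34.9% to 35.7% of the counts in WT and 35.9% to 36.3% in KO, and all peaks of the highest class 38.4% to 39.3% and 39.7% to 40.3%, so the same order of groups was seen there. In KO replicate 1, the deepest library, the share in broad peaks was the lowest of the 3 KO values. The part of peak level and of depth in this difference was not tested.

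**Figure D4:**
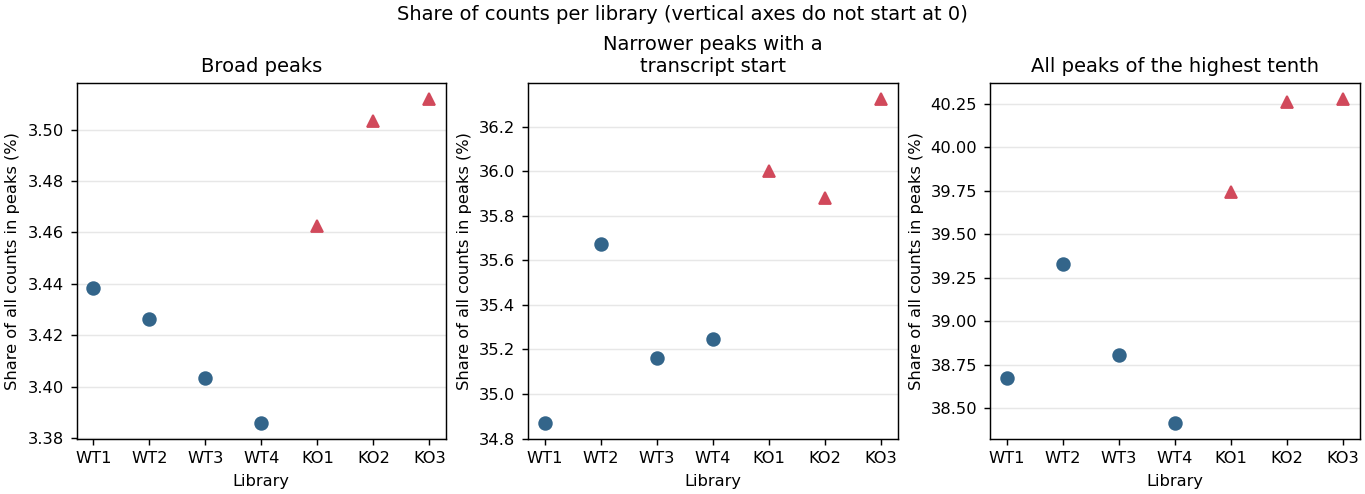
Share of all counts in peaks (%) per library in the broad peaks, in narrower peaks with a transcript start and in all peaks of the highest of 10 classes by level; blue circles are WT and red triangles KO libraries, and the vertical axes do not start at 0. In each panel the 3 KO points lie above the 4 WT points, by 3.46% to 3.51% against 3.39% to 3.44% for the broad peaks.

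Of the peaks with lower KO values, the smallest p was 2722 bp from Dyrk1a, a kinase that acts on NFAT factors among others (chr16:94698241-94699336). It measured 19.4, 25.7, 28.9 and 19.0 CPM in WT and 14.8, 7.58 and 9.17 CPM in KO (log2 fold change -1.06, SE 0.29, adjusted p = 0.142). All KO values lay below all WT values. It is one of the weakest broad peaks, ranked 375 of 384 by WT level, and lies on the chromosome that carries Opa1.

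At the Cers5 promoter, whose sequence is given above, WT libraries had 34.9, 32.5, 34.9 and 32.7 CPM and KO libraries 21.0, 19.0 and 19.4 CPM (log2 fold change -0.76, SE 0.22, adjusted p = 0.197). Within each group the values were close, and the groups did not overlap. At the Ptprs promoter they were 106, 104, 102 and 94.8 CPM in WT and 79.2, 69.5 and 78.7 CPM in KO (-0.42, SE 0.12, adjusted p = 0.197), again without overlap. At the start of Fgf13, an FGF-like protein that binds sodium channels, WT had 36.3, 23.02, 26.5 and 26.3 CPM and KO 16.6, 19.0 and 12.9 CPM (-0.81, SE 0.25, adjusted p = 0.237).

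The other peaks with small p and lower KO values were the promoters of Mdfic, Alyref2, Mesd/Tlnrd1 (Mesd is a chaperone of LDL-receptor family proteins), Plscr1 (an interferon-induced phospholipid scramblase) and Atxn7l2, with log2 fold changes of -0.49 to -0.33 and adjusted p of 0.347 to 0.373, and a peak 3284 bp from Pecr, an enzyme of peroxisomal fatty acid elongation. Without WT replicate 1 the Mdfic value was -0.30 (adjusted p = 0.694), and without KO replicate 3 the Mesd/Tlnrd1 value was -0.29 (adjusted p = 0.811). The Pecr peak was not called with all libraries, and among the alternatives only the fit without KO replicate 2 called it. It measured 97.4, 76.5, 84.9 and 84.3 CPM in WT and 62.9, 94.8 and 39.9 CPM in KO (-0.41, SE 0.15, adjusted p = 0.349), so KO replicate 2 lay inside the WT range. Without KO replicate 2 the adjusted p was 0.0353 (-0.70, SE 0.16), and without KO replicate 3 it was 0.871 (-0.16).

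Of the peaks with higher KO values, the smallest p was at chr18:55548161-55549404, which is 555570 bp from the nearest protein-coding gene. It measured 73.1, 79.9, 72.3 and 83.3 CPM in WT and 86.9, 112 and 121 CPM in KO (log2 fold change 0.45, SE 0.12, adjusted p = 0.146), with every KO value above every WT value.

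The Zdhhc23 promoter had 37.3, 28.4, 43.4 and 35.8 CPM in WT and 49.9, 55.6 and 59.9 CPM in KO (0.59, SE 0.17, adjusted p = 0.197). The Egln2 promoter had 83.3, 71.8, 84.3 and 85.4 CPM in WT and 116, 91.6 and 108 CPM in KO (0.38, SE 0.12, adjusted p = 0.253). The Exosc8/Alg5 promoter had 59.1, 62.3, 66.2 and 66.4 CPM in WT and 80.1, 92.3 and 79.8 CPM in KO (0.40, SE 0.13, adjusted p = 0.277). At these 3 promoters each KO library lay above each WT library, and none passed the test.

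The same held for the promoter of Mtap, the enzyme that salvages methylthioadenosine, with 86.8 ± 5.69 CPM in WT and 111 ± 6.69 CPM in KO (log2 fold change 0.35, SE 0.11). It also held for the promoter of Tbl1xr1, a subunit of the NCoR corepressor complex, with 135 ± 8.70 and 163 ± 14.8 CPM (0.29, SE 0.10), and for peaks inside Gm34296 (0.48, SE 0.14), 88752 bp from Ssbp2 (0.40, SE 0.14) and 3801 bp from Igsf23 (0.50, SE 0.17). A peak inside Maml3, a coactivator of Notch signaling, had 40.4 ± 2.71 CPM in WT and 58.4 ± 15.8 CPM in KO (0.57, SE 0.17), where the groups overlapped, and without KO replicate 1 its log2 fold change was 0.31. The adjusted p of these peaks ran from 0.214 to 0.303.

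**Figure D5:**
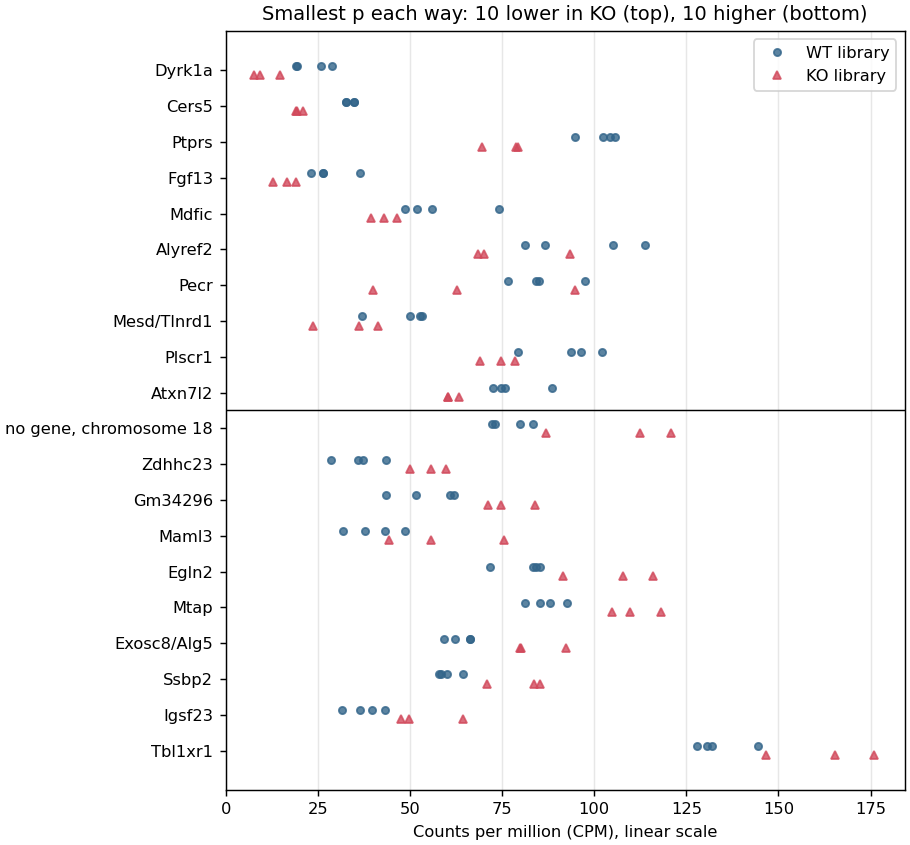
The 10 broad peaks with lower KO values (above the line) and the 10 with higher KO values (below it) that had the smallest p, with 1 point per library on a linear axis in CPM (blue circles WT, red triangles KO); each peak carries the name of its gene or of the nearest gene. The groups lie apart at Cers5 (19.0 to 21.0 CPM in KO, 32.5 to 34.9 CPM in WT), and at Pecr KO replicate 2 (94.8 CPM) lies within the WT range.

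Several promoters with a small p differ in strength as well as direction: Cers5, Fgf13 and Zdhhc23 had WT levels of 29.1 to 36.3 CPM, under the median of broad peaks (68.4 CPM), and Ptprs, Plscr1, Mtap and Tbl1xr1 had 86.8 to 135 CPM. Among the 20 highest broad peaks the largest log2 fold change was 0.19. Ing3 (287 ± 25.3 CPM in WT, 321 ± 8.34 CPM in KO, 0.19, SE 0.08), Rbm15 (254 ± 19.8 and 294 ± 8.44 CPM, 0.19, SE 0.08), Ripk2 (280 ± 2.95 and 308 ± 13.4 CPM, 0.13, SE 0.08) and Mon1b (347 ± 20.9 and 377 ± 3.92 CPM, 0.12, SE 0.07) had all KO values above all WT values, and Zbtb20 (0.06, SE 0.07), Lnpep (0.07, SE 0.07), Kat6b (0.09, SE 0.07) and Crlf2 (0.00, SE 0.07) overlapped.

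The shares of broad peaks in the gene lists are read beside the 0.765% of all peaks. Among the 7680 peaks with a protein-coding start, 220 were broad. The part that such starts have in the share of a list was not tested. Of 77 peaks at Foxp3, Il2ra, Ikzf2, Ctla4, Cd4, Cd3e and Tnfrsf18 none was broad, and the widest was 870 bp. These peaks summed to 1556 to 1667 CPM in WT and 1596 to 1706 CPM in KO. Of B cell genes, Cd79a, Cd79b and Ms4a1 had no peak at all, and those of Pax5 summed to 8.80 to 19.4 CPM in WT and 6.47 to 12.6 CPM in KO. Csf1r, Lyz2 and Itgax (myeloid), Ncr1 (NK cells) and Hba-a1 (erythroid) also had none. The other genes of these lists had peaks: Spi1, Cd14, Cd8a, Cd8b1, Klrb1c, Eomes, Gata1, Klf1 and Epor. Klrb1c had 9 peaks that summed to 119 to 169 CPM in WT, and Eomes 10 with 72.4 to 86.4 CPM. The 3 peaks of Foxp3 summed to 69.3 to 83.1 CPM in WT, so the sums at some loci of other cell types were as large. These sums run over unlike numbers of peaks and do not compare openness peak by peak. The summed peaks of the 5 myeloid genes gave 25.7 to 33.7 CPM in WT and 20.2 to 26.4 CPM in KO. Those of the 5 CD8 T and NK genes gave 258 to 304 and 283 to 306 CPM, and those of the 4 erythroid genes 31.3 to 49.5 and 45.8 to 61.9 CPM.

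Of the 298 peaks of the core Treg list 2 were broad (0.671%), both at Bach2, a repressor that keeps T cells in a resting state. One lies 73143 bp from the gene (59.1 ± 6.02 CPM in WT, 67.6 ± 0.909 CPM in KO, log2 fold change 0.16, SE 0.14). The other lies inside it and had 62.5, 60.9, 50.6 and 53.7 CPM in WT and 40.1, 48.0 and 48.0 CPM in KO (-0.34, SE 0.16, adjusted p = 0.482), so the 2 peaks of 1 gene had opposite signs and neither passed the test. The list of resting and central T cell genes held these 2 and a peak inside Foxp1 (31.7 ± 1.53 and 36.4 ± 7.06 CPM). The T cell receptor list held 1, inside Cd247, the zeta chain of the receptor complex (88.8 ± 10.4 and 89.7 ± 13.8 CPM).

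The activation list held 6 broad peaks among 300 (2%), and none passed the test. They were the promoter of Nfkbia (180 ± 12.2 CPM in WT, 183 ± 10.2 CPM in KO), the promoter of Rel (93.4 ± 13.9 and 88.1 ± 2.24 CPM), a peak inside Jund (90.4 ± 12.2 and 95.9 ± 18.8 CPM) and peaks 1418 bp from Nr4a3 (143 ± 12.0 and 157 ± 22.1 CPM), 46552 bp from Tnfaip3 (110 ± 20.6 and 123 ± 10.9 CPM) and 414 bp from Fosl2 (55.6 ± 17.6 and 67.6 ± 7.28 CPM). Nfkbia and Tnfaip3 are feedback inhibitors of NF-κB, Rel is one of its subunits, and Nr4a3, Jund and Fosl2 are transcription factors of antigen receptor signaling or of AP-1. Of these Fosl2 had the largest log2 fold change (0.36, SE 0.16, adjusted p = 0.470).

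The splicing list held 4 among 75 (5.33%), with the promoters of Hnrnpk/Rmi1 (88.2, 88.0, 92.7 and 81.7 CPM in WT, 102, 104 and 104 CPM in KO, log2 fold change 0.24, SE 0.12, adjusted p = 0.514), Cbx5/Hnrnpa1 (162 ± 7.64 and 171 ± 22.2 CPM), Hnrnpa2b1/Cbx3 (99.8 ± 8.50 and 102 ± 8.01 CPM) and Ddx5/Cep95 (47.6 ± 4.77 and 50.0 ± 9.12 CPM). All 4 are bidirectional promoters. Only at Hnrnpk/Rmi1 did the groups not overlap. The chromatin list held 3 among 266 (1.13%), the promoters of Tet2 (a DNA demethylase, 127 ± 12.2 and 108 ± 14.9 CPM, -0.19, SE 0.11), Eed (a Polycomb subunit, 105 ± 6.70 and 105 ± 13.9 CPM) and Ctcf (the insulator protein, 69.5 ± 3.70 and 72.4 ± 6.32 CPM).

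The lists tied to mitochondria, lysosomes and metabolism held 0 to 2 broad peaks each. The lysosome and autophagy list held 2 among 124 (1.61%): the promoter that Atp6v1a, a subunit of the proton pump of lysosomes, shares with Naa50 (99.7 ± 15.3 and 99.8 ± 7.51 CPM, log2 fold change -0.01, SE 0.12) and a peak 16265 bp from Atg5 (43.0 ± 6.45 and 41.3 ± 2.98 CPM). The mitochondrial dynamics list held 1 among 37 (2.70%), 31751 bp from Phb, which is far from the gene (34.2 ± 3.31 and 34.4 ± 4.27 CPM). Glycolysis and hypoxia held 1 inside the glucose transporter Slc2a3 (23.3 ± 1.05 and 26.0 ± 5.36 CPM), interferon response 1 near Gbp4 (55.8 ± 4.89 and 60.3 ± 6.65 CPM), the ribosomal list 1 at Rpl7 (59.0 ± 6.44 and 50.6 ± 13.3 CPM) and cell cycle 2, at the G1/S cyclins Ccne1 (109 ± 11.6 and 113 ± 10.6 CPM) and Ccne2 (97.3 ± 7.03 and 107 ± 14.5 CPM). Oxidative phosphorylation, the integrated stress response, mTOR and sterol synthesis, effector Treg genes, chemokine receptors and homing, and the Bcl2 family with p53 had no broad peak. None of the broad peaks of any of the 18 lists was called.

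The promoters that carry microRNA hairpins were measured too. The Cdk9 peak had 47.5, 56.9, 56.6 and 55.9 CPM in WT and 89.4, 53.1 and 66.9 CPM in KO (log2 fold change 0.40, SE 0.15, adjusted p = 0.353), and KO replicate 2 lay within the WT range. The Ddhd1 peak (Ddhd1 is a phospholipase) had 98.8, 86.6, 87.9 and 84.8 CPM in WT and 83.8, 60.7 and 75.5 CPM in KO (-0.27, SE 0.13, adjusted p = 0.494), with no overlap. The Kctd12 peak had 66.5 ± 3.87 CPM in WT and 74.9 ± 6.37 CPM in KO (0.18, SE 0.14). These 3 peaks were named because of the hairpins, outside the rule for named peaks.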

How the data were processed

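ATAC-seq libraries of 4 WT and 3 Opa1 KO chimeras were compared. The values are raw counts of reads, which the authors deposited for 50213 intervals. Per the submitters' processing notes, the build was mm10 and MACS2 2.1.1 was among the tools, with bedtools 2.25.0, BWA 0.7.16, SAMtools 1.9, Picard 2.9.4 and Trimmomatic 0.36. How peaks were called and merged, which sets how wide a peak is, and any shift of reads for the transposase are not given in the sources consulted. Positions are as deposited, with the base of the starts not stated. Between 78.0% and 86.3% of the counts per library were even, which counting both mates of a pair would give.

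Broad peaks were found by width (1000 bp or more, chromosomes only). Places came from RefSeq gene and promoter tables of GRCm38, and distal peaks got the nearest protein-coding gene end within 100 kb, which does not show the gene a peak acts on. Exons were not analysed here. The test was edgeR 4.0.16 (quasi-likelihood, robust, genotype only) in R 4.3.3 on all 38041 peaks that passed filterByExpr (minimum count 10, total 15; 12172 removed), with TMM factors and Benjamini-Hochberg adjustment over all of them at 0.05; adjusted p values are from it unless another is named. Ranks, medians over peaks and levels per kb use the mean of all 4 WT libraries. Alternatives used DESeq2 1.42.0 and limma 3.58.1. The procedure was tested on simulated data. Tables used pandas 2.3.3 and NumPy 2.4.6 in Python 3.11.15, and plots matplotlib 3.10.9.

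The peaks, the 18 gene lists and the 5 marker lists were chosen with earlier results of these data known. One marker gene is not reported here. The rule for named peaks took the 10 with the smallest p in each direction where fewer were called, the 20 highest in WT, the 5 widest, up to 3 genes per list, genes with 3 or more broad peaks (there were none), those nearest the width limit, the Opa1 peak and the marker genes; other peaks named were chosen after their values were seen. The reads carry no molecular identifiers, so PCR copies are not separate molecules.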

Additional observations from a re-analysis of the deposited data

Results flagged for a closer look

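In 65 results examined, 2 had 1 of the 4 WT libraries far from the other 3, measured as its gap to the nearest value over the whole range; chance gives such a gap in about 1 in 20. At the Atp6v1a/Naa50 promoter WT replicate 4 had 82.2 CPM, where the others had 107 to 110 CPM. At the Egln2 promoter WT replicate 2 had 71.8 CPM, where the others had 83.3 to 85.4 CPM.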

How the results depend on the processing

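No broad peak was called under 18 of 20 alternatives. Without KO replicate 2 there was 1 (Pecr, range over the omissions of a library 0 to 1), and with the width limit at 800 bp 1 of 1404 peaks, 11440 bp from Rab10 (845 bp, log2 fold change -0.60, adjusted p = 0.0127). The replicate block gave the fewest calls over all peaks (13) and halving the counts the most (77). The median log2 fold change of broad peaks, 0.049, was 0.025 with counts halved, 0.021 with a minimum mean count of 20, 0.021 with total counts as the scale (where that of all peaks was -0.029), 0.066 with no filter, -0.0083 with loess offsets and -0.045 for the 9 peaks of 1500 bp or more. It ran from 0.039 to 0.057 when 1 library was left out. Its sign thus rests on the scaling. With loess offsets 183 of the 384 lay above 0, against 238. The KO minus WT share of counts in broad peaks, 0.0794 percentage points, was 0.234 at 800 bp and -0.0030 at 1500 bp, ran from 0.0659 to 0.0945 without 1 library and was 0.0749 without chromosome 16, which carries Opa1. Deviations of same-numbered WT and KO libraries from their group means had correlations of 0.011, -0.012 and 0.004 over all tested peaks. Over the broad peaks the correlations were 0.030, 0.056 and -0.008. Libraries of a group differed by little more than counting noise, so these values cannot decide whether the numbers pair the samples. With the replicate block the median was 0.044 and 49 peaks had an unadjusted p under 0.05, against 59. Of 1129 alternative values of 63 named peaks, 83 (19 peaks) had the opposite sign to the reported value, and in 82 of these both values were smaller than their SE. The exception was the Lnpep peak, with a log2 fold change of -0.015 (SE 0.06) with loess offsets. The Pecr peak without KO replicate 2 was the 1 value on the other side of the threshold. The cause of these moves was not tested.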

Other observations

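Genes with a zinc finger symbol (Zfp, Zbtb, Zkscan or Zscan before a digit) named 12 of the 384 broad peaks (3.13%), against 1.86% of the narrower peaks, a pattern noticed after the values had been seen. They were Zbtb20, Zfp958, Zfp78, Zfp788, Zbtb14, Zfp384, Zfp644, Zfp407, Zfp800, Zfp664, Zfp236 and Zfp592, and 4 of these stood among the 20 highest broad peaks.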
